A study of Mus musculus with 12 samples.

Results

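Gas5, Snhg1, Eif4a2, Nop56, Gnl3, Ncl and Eif4a1 are 7 mouse genes whose introns carry small nucleolar RNAs (snoRNAs), and their short RNA sequences in DN3 thymocytes are described here. DN3 cells are immature T cell precursors of the thymus. The 7 genes were taken by symbol from a list of 10847 genes, and they were picked because many of its distinct sequences lie in them. The number of sequences per gene is therefore a description and carries no test. The list held 54267 sequences, of which 1159 (2.14%) belonged to the 7 genes.

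The study made 12 small RNA libraries, 1 for each combination of 4 cell types (DN3 thymocytes, regulatory T cells, CD4+ T cells and embryonic fibroblasts) with control, Drosha-deleted or Dicer-deleted cells. The list analysed comes from the DN3 control library alone. Its cells were sorted by flow cytometry from thymi of Lck-cre mice aged 6 to 7 weeks, backcrossed to C57BL/6. These mice express Cre recombinase from the Lck promoter, which is active in T cell precursors, and the labels name neither deletion for them. RNA of 19 to 30 nt was cut from a gel, and adaptors could join only those whose 5′ end bore a phosphate and whose 3′ end bore a hydroxyl. There was no replicate.

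Each entry of the list was 1 distinct sequence with its gene, position, orientation and genic category as the authors assigned them. The deposited list gave no read count, so the numbers below count different molecules and say nothing of abundance. A sequence read once and a sequence read many times weigh the same, and the depth of the library is unknown. Intervals are exact 95% binomial (Clopper-Pearson) intervals. They cover counting error only, and overlapping sequences of a gene are not independent. DN3 markers were represented, with 65 sequences for Notch1, 58 for Lck, 21 for Rag1 and 3 for Rag2, but 0 for Ptcra, the pre-T cell receptor chain. Cd4, Cd8a, Cd79a, Lyz2, Itgam, Hbb-b1 and Hba-a1, markers of later thymocytes, B cells, myeloid cells and red cells, had 0.

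SnoRNAs guide chemical modification of ribosomal RNA in the nucleolus. Most vertebrate snoRNAs are cut out of introns of host genes once the intron has been spliced. Box C/D snoRNAs are short, hold a C box (TGATGA in its core) near the 5′ end and a D box (CTGA) near the 3′ end, and guide methylation of ribose. Box H/ACA snoRNAs are longer and guide the conversion of uridine to pseudouridine. Gas5 and Snhg1 are hosts that code for no protein. Eif4a1 and Eif4a2 encode RNA helicases of translation initiation. Nop56 encodes a core protein of box C/D snoRNA particles, Ncl encodes nucleolin and Gnl3 encodes nucleostemin, both nucleolar proteins.

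The sequences below show how the listed RNAs sit in the snoRNA that holds the largest cluster of overlapping sequences in each gene. Each is the sequence of up to 30 nt whose ends were shared by most others of the same part, and the C box core TGATGA (in 5′ parts) or the last D box CTGA (in 3′ parts) is in capitals where present. In Eif4a1 a cluster in Gm22988 and one in Gm25835 tied at 17 sequences, and Gm22988 is shown here. Names of snoRNAs are those of GENCODE M21, and positions are on GRCm38.
Gas5, Gm23212, 5′ part, chr1:161036682-161036709, plus strand: cctgcaTGATGAcgaacaaatactgact
Gas5, Gm23212, 3′ part, chr1:161036710-161036739, plus strand: acctgaagatcttattagctctatCTGAtg
Snhg1, Gm22680, 3′ part, chr19:8725378-8725406, plus strand: gattgctgttgagacttggaaatCTGAtt
Eif4a2, Snord2, 3′ part, chr16:23108990-23109017, plus strand: tgaaatgaagagaatactcttgCTGAtc
Nop56, Gm23650, 5′ part, chr2:130277697-130277721, plus strand: ctacaatgatggtaatatttttcgt
Nop56, Gm23650, 3′ part, chr2:130277745-130277765, plus strand: ttgacaccttgggtCTGAgtg
Gnl3, Snord69, 5′ part, chr14:31014333-31014360, minus strand: aagcagTGATGAcagattggatctgact
Gnl3, Snord69, 3′ part, chr14:31014293-31014317, minus strand: gtttgttcaatccaaccCTGAgctt
Ncl, Gm24148, 5′ part, chr1:86352062-86352087, minus strand: tggataTGATGActgattacctgaga
Ncl, Gm24148, 3′ part, chr1:86352008-86352030, minus strand: tagatagtcaagttCTGAtccag
Eif4a1, Gm22988, 5′ part, chr11:69669750-69669778, minus strand: cacccctggcaatgggcaaagaggcacct

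Gas5 had 384 distinct sequences, the most of any gene in the list. Snhg1 followed with 302 and Eif4a2 with 125. Nop56 had 103 and ranked 8, Gnl3 had 87 and ranked 9, Ncl had 80 and ranked 11, and Eif4a1 had 78 and ranked 12. Between these ranks stood, among others, the nuclear noncoding RNA Malat1 with 116 and the histone gene Hist1h1c with 114. The median gene had 3 sequences, 2713 genes had 1, and 34 genes had 50 or more.

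Annotated snoRNAs held 943 of the 1159 sequences, or 81.4% (79.0% to 83.6%), counting any overlap on the same strand. The share was 85.7% in Gas5 (329 sequences), 89.7% in Snhg1 (271) and 90.8% in Gnl3 (79). It was 74.8% in Nop56 (77), 68.8% in Eif4a2 (86), 65.0% in Ncl (52) and 62.8% in Eif4a1 (49). The intervals of Ncl (53.5% to 75.3%) and Eif4a1 (51.1% to 73.5%) do not reach those of Gas5 (81.8% to 89.0%) and Snhg1 (85.7% to 92.9%). These gaps are no test between genes, because overlapping sequences of a gene are not independent and the intervals can be too narrow. Whether Eif4a1 differs from Gas5 or Snhg1 was not tested. For Ncl the gap to Gas5 also rests on how the list names its entries. With 54 sequences of its snoRNA Snord82 that are listed under that symbol, the share was 79.1% (71.2% to 85.6%), which overlaps the interval of Gas5. Of the other 216 sequences, 97 formed clusters upstream of a gene's first snoRNA sequences, called first-exon clusters here. A further 25 had an end exactly at a splice site, 78 lay elsewhere on the sense strand and 16 were antisense.

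**Figure D1:**
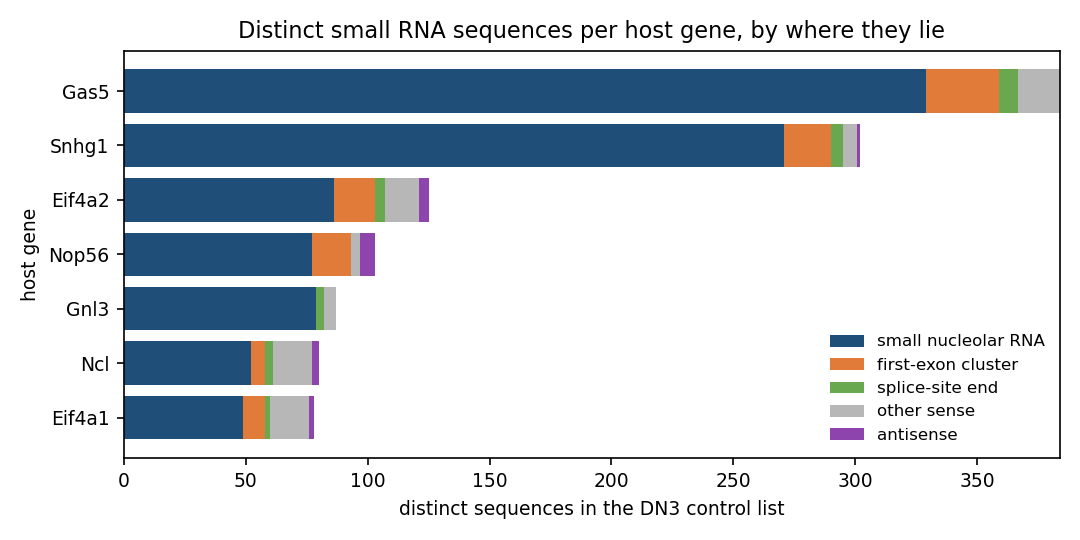
Distinct sequences per host gene (x axis, number of distinct sequences) in the DN3 control list, with bars split by where the sequences lie: annotated snoRNA, first-exon cluster, splice-site end, other sense position, or antisense strand. The snoRNA section is the longest in all 7 bars, from 329 sequences in Gas5 to 49 in Eif4a1.

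Sequences lying wholly inside an annotated snoRNA made up 73.8% of the 7 genes' sequences (855), against 3.29% of those of all other genes (1748 of 53108). In the whole list 2603 sequences from 124 genes met this criterion, and 32.8% of them came from the 7 genes. Because the genes were picked as hosts, the contrast describes the choice. A list of 63 other host genes gave a closer comparison: 55 had sequences, with a median of 23, and 39 had at least 1 inside a snoRNA. Of their 1611 sequences, 57.9% lay wholly inside one. Among 16 genes for proteins that bind or assemble snoRNAs, 12 had sequences. Besides Nop56, Nop58 alone had any inside a snoRNA (28 of 44), and Fbl, the methyltransferase of box C/D particles, had 10 sequences and none there.

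All 9 snoRNAs annotated in Gas5 were covered, with 20 to 55 sequences each. Gm23212 had 55, Mir5117 53, Gm26224 49 and Gm25789 40. Gm22489 had 33, Snord78 28, Snord47 26, Snord80 25 and Gm22357 20. (Mir5117 is an annotation name. Its span of 84 nt holds TGATGA at base 10 and CTGA beginning 11 bases from its end.) In the gene as a whole the sequences fell into 34 clusters of overlapping sequences on 1 strand, and 14 clusters with 5 or more members held 357 of the 384. The largest covered 58 nt of the 60 nt of Gm23212.

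The 5′ part of the snoRNA gave most Gas5 sequences. With a part defined by an end within 10 bases of the annotated end, 206 were 5′ parts, 83 were 3′ parts and 40 were neither. In Gm23212, 48 of 55 were 5′ parts and 15 shared the same first base, the first base of the annotated snoRNA. Mir5117 was close to even, with 27 of 5′ parts and 25 of 3′ parts. The 3′ parts were more numerous in Gm25789, 18 against 14, and in Gm22357, 9 against 5. The 2 ends of Mir5117 and of Gm25789 are shown because both gave many sequences, with boxes in capitals as above.
Gas5, Mir5117, 5′ part, chr1:161037359-161037379, plus strand: tgttagTGATGAtcaataaag
Gas5, Mir5117, 3′ part, chr1:161037405-161037434, plus strand: taagattgaagattgattgttaagCTGAaa
Gas5, Gm25789, 5′ part, chr1:161038311-161038335, plus strand: aatacaTGATGAtctcacacaactt
Gas5, Gm25789, 3′ part, chr1:161038350-161038378, plus strand: attacttgatgatagtaaaagatCTGAtg

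Snhg1 showed 7 snoRNAs of up to 100 nt with 17 to 50 sequences each, and 1 longer one. Gm24452 had 50, Gm22680 48, Gm25894 46, Gm24453 43 and Gm25855 35. Gm23246 had 30 and Gm22744 had 17. Here 3′ parts (106) outnumbered 5′ parts (85), and 80 were neither. The 2 snoRNAs at the extremes differed: Gm25894 had 30 of 5′ parts and 0 of 3′ parts, while Gm22680 had 0 of 5′ parts and 24 of 3′ parts. The 48 Gm22680 sequences together covered 60.9% of that snoRNA, toward its 3′ end, and 12 shared a first base 37 bases into it. Snord22, of 126 nt, had 2 sequences under Snhg1. Another 19 sequences in the same span were listed under Snord22 itself, 16 of them 3′ parts, so the count of Snhg1 would be 321 with them.

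**Figure D2:**
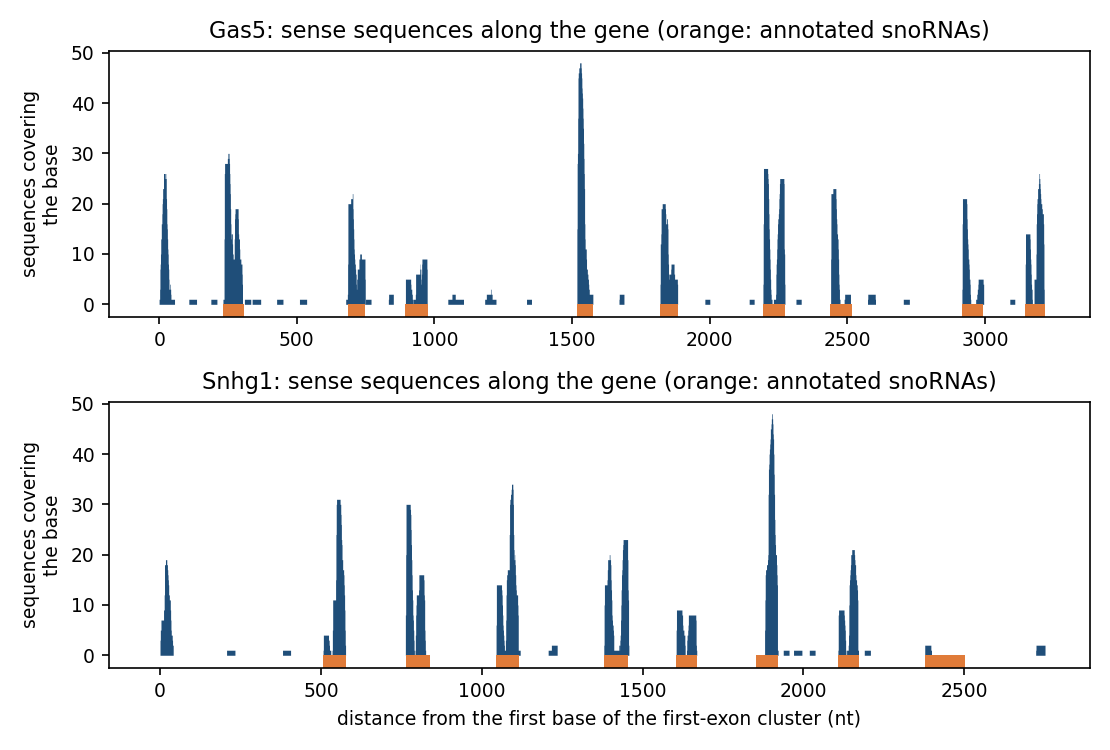
Number of distinct sense sequences covering each base (y axis) along Gas5 and Snhg1, against distance in nt from the first base of the first-exon cluster (x axis), with annotated snoRNAs as orange boxes on the baseline. Peaks stand on all 9 boxes of Gas5 and on the 7 shorter boxes of Snhg1, the highest on Gm23212 and Gm22680 (48 sequences over 1 base in each). Each panel also has a peak at its left, from the 30 and 19 sequences of the first-exon clusters.

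Eif4a2 drew most of its snoRNA sequences from 1 place. Snord2, a box C/D snoRNA of 69 nt, had 55 of the 86, with 34 of them 3′ parts, 1 a 5′ part and 20 between. The 4 longer snoRNAs of the gene had 17 (Gm24616), 11 (Gm26447), 3 (Gm24201) and 0 (Snora81). All 17 of Gm24616 were 5′ parts and covered 21.6% of its 139 nt.

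Nop56 carried sequences from 5 snoRNAs. Gm23650 had 29, of which 21 were 3′ parts, and Snord57 had 27, split into 16 of 5′ parts and 11 of 3′ parts. Snord110 had 13, Gm24451 had 7 and Gm23187 had 1. In Snord57, 12 of the 27 overhung an annotated end, and 9 shared a last base 2 bases beyond the annotated 3′ end.

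Gnl3 gave mostly 5′ parts (60 of 79). Snord69 had 41 sequences (26 of 5′ parts, 5 of 3′ parts), Snord19 had 30 (26 and 1) and Gm24916 had 8 (8 and 0). In both Snord69 and Snord19, 15 sequences shared 1 first base. Of the 87 sequences, 79 fell in 3 clusters of 5 or more members, and no first-exon cluster was found.

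Ncl hosts Gm24148, Snora75 and Snord82. Gm24148 had 33 sequences (16 of 5′ parts, 8 of 3′ parts) and Snora75, of 133 nt, had 19 (9 and 10), all 19 of them at one end or the other. Snord82 had 0 under Ncl, but 54 sequences lying wholly inside it were listed under the symbol Snord82, 26 of them 5′ parts and 21 3′ parts. With these, the Ncl locus would count 134 sequences in place of 80.

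The first bases of Gm24148 are also annotated in RefSeq as a mature microRNA, miR-3535, at chr1:86352062-86352087 on the minus strand of GRCm38. It is shown with its seed (bases 2 to 8) in capitals because 1 listed sequence of Ncl, printed above as the 5′ part of Gm24148, was identical to it.
miR-3535: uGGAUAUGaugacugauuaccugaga
A further 11 Ncl sequences lay inside it and 2 extended it. Of these 14, 11 began at its first base.

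Eif4a1 carries 3 annotated snoRNAs of over 100 nt and none shorter. Gm25835 had 30 sequences in 2 groups, 17 of 5′ parts and 12 of 3′ parts, and 14 of the 30 overhung an annotated end by at least 1 base. Despite its 144 nt it holds TGATGA at base 7 and CTGA 8 bases from its end, the box positions of a C/D snoRNA. Gm22988 had 18, of which 17 were 5′ parts, and Gm24029 had 1. The ends of Gm25835 and of Snora75 are shown as examples from snoRNAs over 100 nt.
Eif4a1, Gm25835, 5′ part, chr11:69668970-69668996, minus strand: tgctctgTGATGAaccccatgcgtgtc
Eif4a1, Gm25835, 3′ part, chr11:69668851-69668874, minus strand: atcagtccttgtattCTGAgagca
Ncl, Snora75, 5′ part, chr1:86351283-86351301, minus strand: atcttctcattgagctcct
Ncl, Snora75, 3′ part, chr1:86351169-86351197, minus strand: agtatatttggctgttgtgtgagacatta

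Over all 7 genes, 36 snoRNAs were annotated and 34 had at least 1 sequence under their host. The 943 sequences split into 465 of 5′ parts (49.3%), 307 of 3′ parts (32.6%) and 171 that ended near neither end (18.1%). None could reach both ends, since the shortest of these snoRNAs, Gm23212, was 60 nt and the longest sequence in the 7 genes was 33 nt. More 5′ than 3′ parts were seen in 21 snoRNAs and more 3′ than 5′ parts in 12. The balance differed between hosts: 5′ parts made up 75.9% in Gnl3, 69.4% in Eif4a1 and 62.6% in Gas5, but 31.4% in Snhg1 and 30.2% in Eif4a2. It also differed between snoRNAs of a host, so single snoRNAs weigh on these shares. In Eif4a2, 5′ parts were 1 of 55 in Snord2 but 17 of 17 in Gm24616. In Snhg1 they were 30 of 46 in Gm25894 and 0 of 48 in Gm22680.

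Ends were set against the annotation. Of the 943, 147 began exactly at the first annotated base and 273 within 1 base of it. At the other end 38 finished exactly at the last annotated base, while in the 26 snoRNAs of up to 100 nt 155 finished 2 to 5 bases before it. All 26 of these snoRNAs hold CTGA within 20 bases of their end, and 18 hold TGATGA within 20 bases of their start. In them, 258 of 275 3′ parts contained CTGA and 267 of 395 5′ parts contained TGATGA. The 395 include 5′ parts of snoRNAs that hold no TGATGA, among them Gm25894 (30), Snord19 (26) and Gm22489 (21). The 2 shares therefore do not compare how often a part carried a box that its snoRNA holds. Within a part, many sequences shared an end: 249 of the 465 5′ parts (53.5%) had the commonest first base of their snoRNA's 5′ part, and 152 of the 307 3′ parts (49.5%) had the commonest last base of its 3′ part. Away from the start, the commonest first base lay 37 bases into a snoRNA (29 sequences), of which 12 were in Gm22680 and 11 in Snord2.

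**Figure D3:**
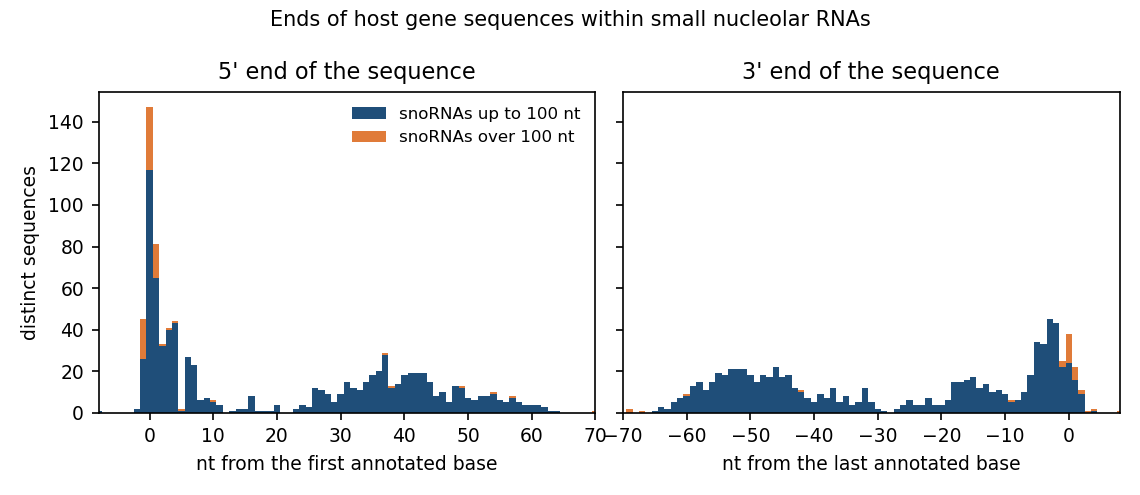
Distance in nt (x axes) of the 5′ end of each sequence from the first base of its snoRNA (left) and of its 3′ end from the last base (right), for the 943 sequences of the 7 genes in snoRNAs. Bars count distinct sequences, with snoRNAs of up to 100 nt in blue and longer ones in orange. Ends outside the drawn range, mostly more than 70 bases away, are not shown and all belong to snoRNAs over 100 nt. The 5′ ends peak at the first base (147 sequences), with a second, broad group around 37 bases, and the 3′ ends gather 2 to 5 bases before the last base.

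Across all 1159 sequences TGATGA occurred in 31.0% (359) and CTGA in 46.9% (544), against 2.38% and 11.9% of the sequences of all other genes. The motifs were read on the strand of the sequence. Their reverse complements, TCATCA and TCAG, occurred in 0% and 4.23%, against 0.188% and 8.85% elsewhere. By gene, TGATGA ranged from 53.6% in Gas5 to 0% in Eif4a2, whose Snord2 lacks this exact C box. CTGA was found in 43.7% to 57.3% of the sequences in 6 of the genes and in 20.5% in Eif4a1.

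Outside the snoRNAs, 6 of the 7 genes had a sense cluster of 5 or more sequences upstream of their first snoRNA sequences. These are the first-exon clusters. The name marks that position only, since lying in an exon was not required. In Nop56, 2 of the 16 had the authors' category intron. Gas5 had 30 sequences there, Snhg1 19, Eif4a2 17, Nop56 16, Eif4a1 9 and Ncl 6. The first base of the cluster lay at most 1 base from the nearest start of any annotated transcript in Gas5, Snhg1, Eif4a2, Nop56 and Ncl. In Eif4a1 it lay 17 bases after one. Transcript starts are also annotated inside these genes, so this distance does not mark the gene's start. A lone Gas5 sequence farther down, at chr1:161037308-161037325, also lay 1 base from one. The annotated Gas5 and Eif4a2 genes begin upstream of their clusters, at chr1:161034422 and chr16:23107444. In Gas5, Snhg1, Nop56 and Eif4a1 some sequences ran across the annotated end of an exon into the intron: 11 of 30, 19 of 19, 9 of 16 and 9 of 9. In Eif4a2 and Ncl none did. Examples from the 2 noncoding hosts follow, with the GT that opens the intron in capitals. They are shown because they read through the exon's end.
Gas5, chr1:161035174-161035199, plus strand: gctgtgcggcattctgagcagGTatg
Gas5, chr1:161035180-161035203, plus strand: cggcattctgagcagGTatgcaat
Snhg1, chr19:8723487-8723513, plus strand: ctcatttttccttgttcgggGTaagta
Snhg1, chr19:8723500-8723520, plus strand: gttcgggGTaagtactctacg
The median length over the 6 clusters was 21 nt, and 19.6% were of 18 nt.

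Another set stopped exactly at the last base of an exon. The 7 genes had 16 such sequences, 9 in Gas5, 3 in Snhg1, 3 in Gnl3 and 1 in Nop56, and 12 of the 16 were 17 or 18 nt long. The 7 of 17 or 18 nt in Gas5 ended at 5 exon ends and the 2 in Snhg1 at 2. For each of these exon ends 1 sequence is shown.
Gas5, chr1:161035997-161036014, plus strand: aggatgaaggcttacgag
Gas5, chr1:161036228-161036244, plus strand: aacagagcgagcgcaat
Gas5, chr1:161036835-161036852, plus strand: ggatagacagtttgaaag
Gas5, chr1:161037147-161037164, plus strand: tttggctggcttgcttgg
Gas5, chr1:161038255-161038272, plus strand: tgcacctttgtttctgag
Snhg1, chr19:8724704-8724721, plus strand: ctcccaggatgagtgcag
Snhg1, chr19:8725506-8725523, plus strand: acaaaggagccgtaccag

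The same stop was seen across the list. Among sense sequences lying in an annotated exon that an intron follows, and not wholly inside a snoRNA, 8.33% (16 of 192) in the 7 genes and 5.09% (655 of 12869) in all other genes ended on its last base. For sequences of 17 or 18 nt the shares were 29.3% (12 of 41) and 14.6% (417 of 2848). In the other genes 11 sequences of that length ended 1 base before the exon end, 13 ended 2 bases before and 16 ended 10 bases before, against the 417 at the end itself. For other lengths the shares at the exon end were 2.65% in the 7 genes and 2.38% in all other genes. At these lengths 238 sequences of the other genes ended there, against 41 ending 1 base before and 53 ending 10 bases before. In the 7 genes 4 ended there, 2 ended 1 base before and 5 ended 5 bases before. Exons of every annotated transcript were used, and some exons of the hosts span snoRNAs, so the 192 can include sequences that overhang a snoRNA.

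**Figure D4:**
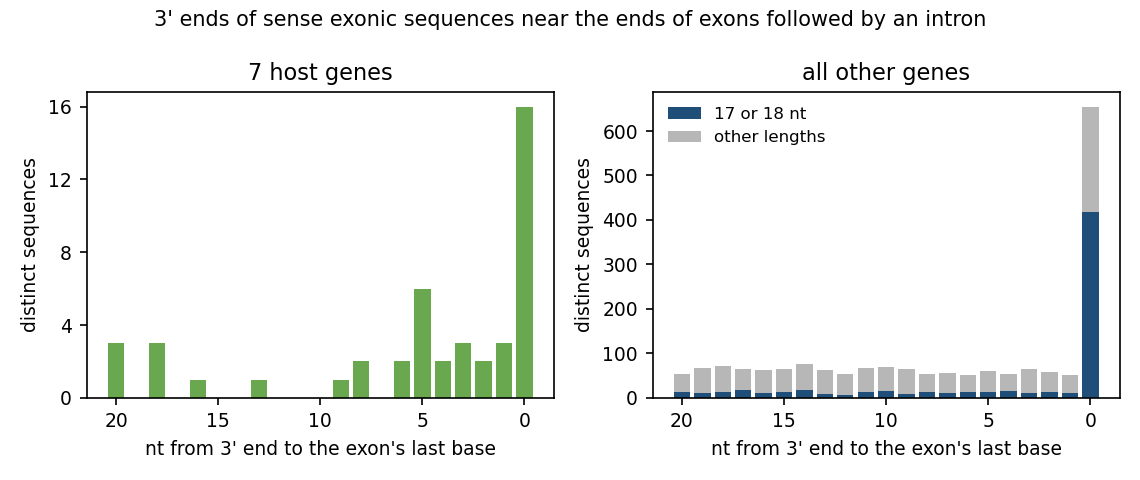
Distance in nt from the 3′ end of a sense exonic sequence to the last base of an exon that an intron follows (x axis, sequences wholly inside snoRNAs left out, the exon end at the right) for the 7 host genes (left) and all other genes (right, split into 17 or 18 nt and other lengths). Bars count distinct sequences. Both panels peak at the exon's last base, with 16 sequences in the host genes and 655 in the other genes, of which 417 are 17 or 18 nt.

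Other sequences had an end exactly at an intron's edge. In 6 sequences the first base was the first base of an intron (4 in Eif4a2, 1 in Gas5, 1 in Eif4a1), with lengths of 18 to 29 nt. Another 6 finished on the last base of an intron (3 in Ncl, 2 in Snhg1, 1 in Eif4a1), with lengths of 22 to 31 nt. Of the 12, 11 had the authors' category "gene", and the Gas5 one was called exon_utr5. These examples show the intron's opening GT or closing AG in capitals.
Eif4a2, chr16:23110154-23110173, plus strand: GTaagtagtgaatcttaatg
Gas5, chr1:161036245-161036269, plus strand: GTaagcaattttgtgtgtgcatgtg
Ncl, chr1:86352634-86352661, minus strand: tgctaatgtgttatctttgtatttgcAG
Snhg1, chr19:8726211-8726238, plus strand: actcctaattcaaatttttatcttgcAG

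The authors' category placed 65.5% (759) of the 7 genes' sequences in introns, against 46.6% of those of all other genes. Of the 759, 705 overlapped annotated snoRNAs, so this contrast too describes the choice of hosts. Outside snoRNAs, 47 of 78 other sense sequences were called intron. So were 2 of 97 in first-exon clusters, 5 of 16 antisense ones and 0 of 25 splice-site ends. In 6 of the genes the intronic share was 72.5% (Ncl) to 93.1% (Gnl3). Gas5 stood apart with 24.5% (94 of 384), since 289 of its sequences were called exon_utr5 although Gas5 has no coding region. Of those 289, 238 overlapped annotated snoRNAs, and the other 91 Gas5 snoRNA sequences were called intron. Every Gas5 sequence matched an exon of at least 1 GENCODE transcript of the gene, but so did 300 of the 302 Snhg1 sequences. In the 6 other hosts all 614 snoRNA sequences, 271 of them in Snhg1, were called intron.

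Orientation was almost entirely sense. Antisense sequences numbered 16 of 1159, or 1.38% (0.791% to 2.23%), against 28.0% (27.6% to 28.4%) of the sequences of all other genes and 5.28% of those of the 55 other hosts. The 943 snoRNA sequences were counted on the sense strand only, so the 16 are 16 of the remaining 216. The low share thus partly describes the choice of hosts. Nop56 had 6, Eif4a2 4, Ncl 3, Eif4a1 2 and Snhg1 1. Gas5 had 0 of 384, which allows up to 0.956%, and Gnl3 had 0 of 87, which allows up to 4.15% (upper limits of the exact intervals). Of the 16, 7 were assigned to the 5′ flank of the gene, 4 in Nop56 and 3 in Eif4a2. Only 2 lay across a snoRNA, Snord110 in Nop56 and Gm25855 in Snhg1.

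Sequences of the 7 genes were longer than those of the rest of the list. The median was 23 nt in the 7 genes, 22 nt in the 55 other hosts and 21 nt in all other genes. Sequences of 25 nt or more made up 41.3% (38.5% to 44.2%) in the 7 genes, against 23.5% (23.1% to 23.8%) elsewhere. By gene that share ran from 35.9% in Nop56 to 46.2% in Eif4a1, and the 7 intervals overlapped. Sequences of 18 nt, the commonest length of the list, made up 8.63% in the 7 genes and 16.3% in all other genes. Within the 7 genes the share of 25 nt or more was 43.8% in snoRNA sequences and 24.7% in first-exon clusters. It was 40% in the 25 splice-site ends, 35.9% in other sense sequences and 25% in the 16 antisense ones.

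**Figure D5:**
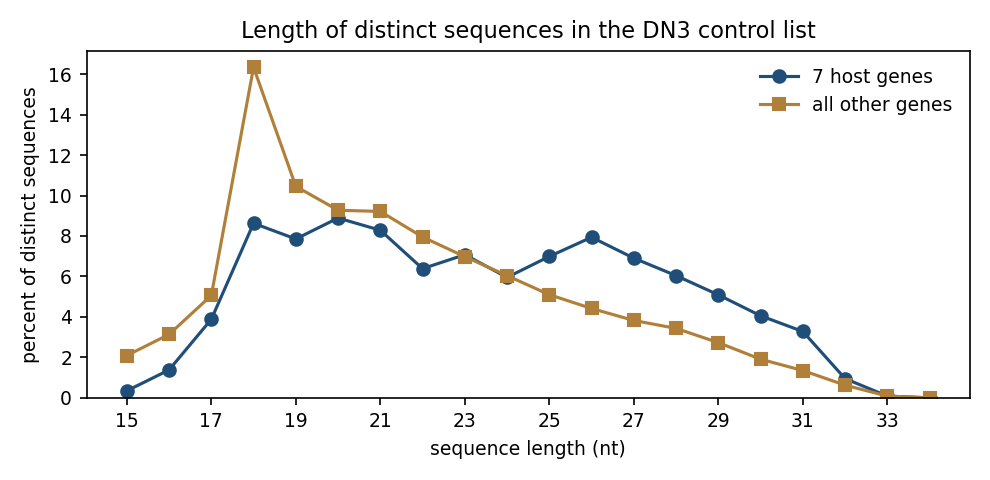
Length in nt (x axis) of the distinct sequences of the 7 host genes (blue circles) and of all other genes (brown squares), as a percent of each set (y axis). The other genes peak at 18 nt (16.3%), where the host genes reach 8.63%, and the host genes lie above from 25 to 32 nt.

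The first base was T in 32.8% (380) of the 7 genes' sequences and G in 20.4%, against 20.4% and 29.2% in all other genes. Shares of T varied between the hosts, with 43.7% in Nop56 and 43.0% in Snhg1 but 8.05% in Gnl3, where 56.3% began with A. Many sequences of a snoRNA share 1 first base, so they are not independent in this count. The last base was A in 31.1% of the 7 genes' sequences and in 23.8% of the others.

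Sequences of the 7 genes crowded together. They formed 154 clusters, and the 49 clusters with 5 or more sequences held 88.0% of them, against 70.4% of the sequences of the 55 other hosts and 12.2% of those of all other genes. The genes were picked for their many sequences, which by itself favours overlap, so these shares describe the choice. Of the 49, 43 lay on snoRNAs and 6 were first-exon clusters. Sequences overlapping no other made up 6.90% in the 7 genes and 69.5% in all other genes, and in the 55 other hosts they numbered 290 of 1611. The largest cluster per host held 55 sequences in Gas5, 54 in Eif4a2, 48 in Snhg1, 41 in Gnl3, 29 in Nop56, 25 in Ncl and 17 in Eif4a1. The largest outside the 7 held 76, in Hist1h1c.

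Of the 1159 sequences, 0 appeared, whole or as part of an entry, in the miRNA lists of the 3 DN3 and 3 regulatory T cell libraries, which give a sequence for each entry. This does not set the 7 genes apart, since no sequence of the whole genic list was identical to an entry of these 6 lists. The lists of the CD4+ T cell and fibroblast libraries give miRNA names without sequences and were not searched. How the host gene sequences behave in Drosha- or Dicer-deleted cells was not analysed here.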

How the data were processed

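Small RNAs were sequenced from 12 libraries, and the genic list of the DN3 control library was used. The authors deposited 1 entry per distinct sequence (54267, 15 to 34 nt, although 19 to 30 nt was selected per the labels) with gene, position, orientation and genic category. For aligner, mismatches, genome build and read counts the sources used here give nothing. The authors' deposited miRNA values, treated as scores (normalised whole numbers), served only to search their sequences. The 7 genes and the comparison lists were chosen with earlier results of these data known.

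List positions differed from GRCm38 by 1 constant within each gene at every exact match to a GENCODE M21 snoRNA or host exon, and GENCODE features were placed by that match. Overlapping sequences (1 base or more, same strand) formed clusters, and those with 5 or more were described. Sequences were printed for each gene's largest cluster (a tie in Eif4a1) by the end-sharing rule. Further examples were chosen after their values were seen. For all other genes, sequences were matched whole to 1558 annotated snoRNAs, and exon ends were taken from exact matches to GENCODE transcripts (9467 of 10847 symbols were found). Matching and clustering were tested on simulated data. Of 943 host snoRNA sequences, 25 matched more than 1 annotated snoRNA. Python 3.11.15, pandas 2.3.3, NumPy 2.4.6, SciPy 1.17.1 and matplotlib 3.10.9 were used. With 1 library, no test was run and no sequence is reproduced by a replicate.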

Additional observations from a re-analysis of the deposited data

How the results depend on the processing

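Keeping only sequences of 19 to 24 nt reduced the 7 genes' total to 515, in place of 1159, with 170 in Gas5, 137 in Snhg1, 52 in Eif4a2, 47 in Nop56, 37 in Gnl3, 39 in Ncl and 33 in Eif4a1, because fewer lengths count. Requiring the whole sequence inside an annotated snoRNA gave 73.8% in place of 81.4%. Counting distinct strings, or strings listed once, changed nothing, since each is listed once. Requiring 10 shared bases gave 168 clusters in place of 154, joining both strands 151. Leaving out each gene's largest cluster gave 38.5% of 25 nt or more, in place of 41.3%. The next 2 alternatives were chosen after seeing the data. Adding sequences listed under Snord82 and Snord22 raised the total to 1232, Ncl to 134 and the snoRNA share of Ncl to 79.1%, in place of 65.0%. With parts defined within 5 bases of an annotated end, 41.9% were 5′ parts and 26.9% were 3′ parts, in place of 49.3% and 32.6%. No paired analysis was possible because the list comes from 1 library and no test was run. The unknown depth limits every count: a missing sequence may be unsampled, and counts of distinct sequences grow with depth and with the number of ends an RNA has.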
